A study of Mus musculus with 24 samples.

Results

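Gene expression in the active phase was compared with the start of the handling window in the mediobasal hypothalamus of sleep-restricted mice. The 6 arrays chosen by their titles, 3 from zeitgeber time (ZT) 19 and 3 from ZT1, were set against each other among the 24 arrays of the series, and each array holds 1 mouse. Every mouse carried the background strain labelled C57BL76J, with no transgene or deletion named. Under timed sleep restriction (TSR), mice were kept awake by gentle handling between ZT0 and ZT6 for 5 days running, slept freely for 2 days and were then handled for 5 days more, while undisturbed mice (CON) were housed in parallel. The times are hours after lights on as read from the titles, while the labels at hand do not give the day of tissue collection, the lighting schedule, age or sex. Of 35556 probe sets, 21789 carried exactly 1 gene symbol, and 11963 of 19938 genes passed a filter on low signal (mean of at least 5.84 on the log2 scale) and were tested. Differences are ZT19 minus ZT1 on the log2 scale, where 1 unit is a 2-fold difference, and a level of 1 probe set is never set against that of another.

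The mediobasal hypothalamus holds the arcuate and ventromedial nuclei, which sense hormones and control feeding, and it borders the third ventricle, whose ependymal cells carry motile cilia that move cerebrospinal fluid. In every cell the circadian clock runs on a loop in which CLOCK and BMAL1 switch on Per, Cry, Nr1d and the output factors Dbp and Tef through E-box sequences, and the PER and CRY proteins then block their own synthesis. The suprachiasmatic nucleus just in front of the mediobasal hypothalamus sets the phase of these clocks through vasoactive intestinal peptide and its receptor VIPR2. Sleep loss is known to raise activity-dependent genes and chaperones in the brain, and oligodendrocyte genes are known to differ between sleep and waking.

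Promoter stretches of 2 clock genes and 2 cilium genes are shown as examples that hold a motif. Each of these 4 genes passed the test between the times without the narrow arrays described below. Other genes that passed, such as Clock, Dbp, Stoml3 and Dnah12, are not shown. The stretches are the 250 bases before an annotated start in RefSeq's table of GRCm38.p6, 5′ to 3′ on the strand of the gene. Only starts with the motif were used, which were 1 of 2 for Per1 and 2 of 2 for Tef. The capitals mark an E-box (CACGTG, its own reverse complement) in Per1, at chr11:69098699-69098948 (plus strand), and in Tef, at chr15:81802423-81802672 (plus strand). In the ependymal cilium genes Hydin, at chr8:110266727-110266976 (plus strand), and Ccdc153, at chr9:44240427-44240676 (plus strand), they mark GTTGCC or its reverse complement GGCAAC, the core of the X-box read by RFX factors of cilium genes.
Per1: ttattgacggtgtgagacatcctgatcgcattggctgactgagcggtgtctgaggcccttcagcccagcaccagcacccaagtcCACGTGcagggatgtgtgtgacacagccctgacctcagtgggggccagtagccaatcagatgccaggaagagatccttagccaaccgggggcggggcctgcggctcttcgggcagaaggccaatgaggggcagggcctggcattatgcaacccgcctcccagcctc
Tef: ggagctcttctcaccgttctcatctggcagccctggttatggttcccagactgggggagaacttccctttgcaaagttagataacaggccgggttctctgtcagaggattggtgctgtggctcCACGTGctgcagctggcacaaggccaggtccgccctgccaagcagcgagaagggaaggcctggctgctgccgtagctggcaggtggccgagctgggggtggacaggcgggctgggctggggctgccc
Hydin: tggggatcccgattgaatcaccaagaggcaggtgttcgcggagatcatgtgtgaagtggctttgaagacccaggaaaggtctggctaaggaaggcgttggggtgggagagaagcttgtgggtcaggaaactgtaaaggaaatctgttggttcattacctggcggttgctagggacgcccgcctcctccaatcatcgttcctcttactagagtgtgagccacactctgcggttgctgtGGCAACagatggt
Ccdc153: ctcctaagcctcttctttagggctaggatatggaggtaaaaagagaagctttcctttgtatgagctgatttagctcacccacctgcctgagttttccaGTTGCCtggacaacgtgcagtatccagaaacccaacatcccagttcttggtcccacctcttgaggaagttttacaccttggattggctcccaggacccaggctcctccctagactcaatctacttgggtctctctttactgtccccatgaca
The E-box was found on either strand in such a window for 6 of 23 core clock and clock output genes with an entry (26.1%: Avp, Bhlhe41, Ciart, Cry1, Per1 and Tef), against 961 of 9580 tested genes (10%) and 6.02% of all 32851 windows. GTTGCC was found in 2 of 12 motile cilium genes (16.7%: Dnaic2 and Hydin, with Ccdc153 counted below among ependymal genes), against 1225 of 9580 tested genes (12.8%) and 10.4% of all windows. A match describes the sequence without showing that a factor binds there. Per1 and Tef fell and Hydin and Ccdc153 rose in the 20-array fit given below.

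The third ZT1 array differed from the other arrays compared. Its middle 50% of probe sets spanned 2.18 log2 units, as did 2.12 to 2.25 in 3 arrays of other groups (CON ZT19 arrays 2 and 3, and TSR ZT13 array 2), against 2.96 to 3.29 in the remaining 20. The rank correlation of these 4 narrow arrays with the others had medians of 0.824 to 0.889, against 0.986 to 0.991. Limma was therefore fitted to all 24 arrays and to the 20 others, where ZT1 has arrays 1 and 2 only. List medians are given for both fits, and a gene given with 20 arrays alone did not pass with 24. The median difference over all genes was 0.24 with 24 arrays and -0.04 with 20.

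With all 24 arrays, 14 genes passed an adjusted p of 0.05 in limma (0.117% of those tested), of which 13 rose (0.109%) and 1 fell (0.00836%), and 691 had an unadjusted p under 0.05. Leaving out the narrow ZT1 array alone gave 46 genes, 18 higher and 28 lower, and TSR ZT13 array 2 or CON ZT19 array 1 alone gave 40 or 26. Only 4 genes passed without ZT1 array 1 or 2 or ZT19 array 1 or 3, 5 without ZT19 array 2, and 7 without any single array of CON at ZT1, ZT7 or ZT13, of TSR at ZT7, or TSR ZT13 array 1. With 20 arrays, 1792 genes passed in limma (15%), 600 higher (5.02%) and 1192 lower (9.96%). Quantile normalization of the 20 arrays again gave 1252 higher and 1085 lower, and that of the 24 arrays 4 higher and 1 lower. The 20-array count was 660 without ZT1 array 1 and 850 without ZT1 array 2. All 14 genes of the larger fit also passed in the smaller one, in the same direction. Among the 1792, the median size of the difference was 0.37, 387 genes differed by over 0.5, and 38 by over 1 (16 higher and 22 lower). In 34 of the gene lists, all but the motile cilium and suprachiasmatic ones, 0 members passed with 24 arrays in limma and 0 to 8 had an unadjusted p under 0.05. Here rose and fell are used of genes past the threshold in the fit named. The shares of 5.02% higher and 9.96% lower are the background for each 20-array list count below.

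**Figure D1:**
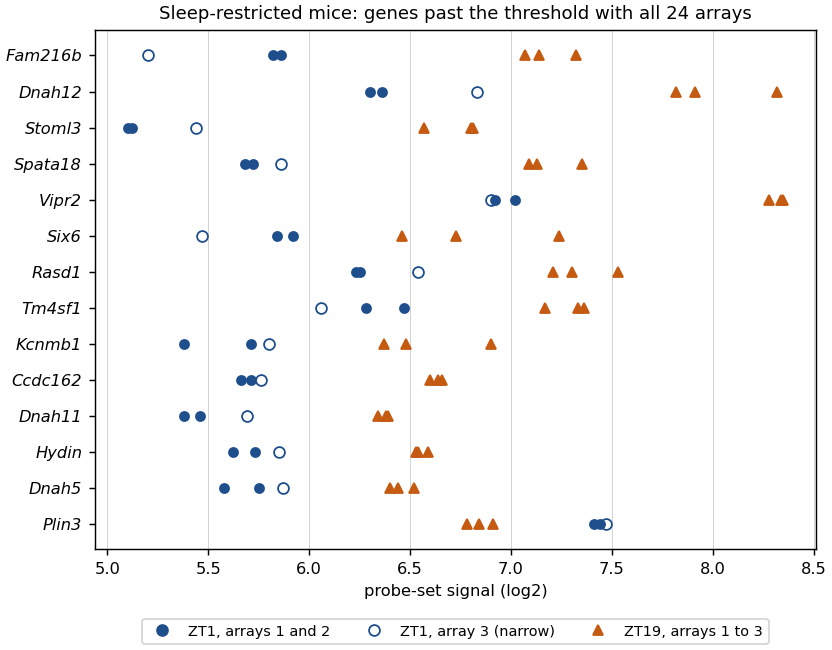
Probe-set signal (log2, horizontal axis) in each of the 6 arrays for the 14 genes past the threshold with all 24 arrays, in order of their difference. Circles are ZT1 (open for the narrow array 3) and triangles ZT19, and in each gene the 3 triangles lie on one side of the 3 circles, to the left in Plin3 and to the right in the other 13.

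Genes of the motile cilium, the beating hair of ependymal cells, were higher at ZT19. The list had 22 genes on the array, and those not tested lay below the filter on low signal. Of 15 tested members of the list, 7 rose and 0 fell with 24 arrays (median 0.86), and 12 rose and 0 fell with 20, with a median difference of 0.88 against -0.04 over all genes. The mean level of the list was 5.97, 5.98 and 6.06 in the ZT1 arrays and 6.94, 6.83 and 6.82 in the ZT19 arrays. The median over all probe sets was 5.95, 5.94 and 6.18 in the ZT1 arrays. At a level so near these medians, the list cannot show whether the narrow array stood with its group. The same 12-to-0 count was found after leaving out any 1 of the 5 other arrays.

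Stoml3, a stomatin-family membrane protein of cilia, had signals of 5.1, 5.12 and 5.44 in ZT1 arrays 1, 2 and 3 and of 6.81, 6.57 and 6.8 in ZT19 arrays 1, 2 and 3. The groups did not overlap, which was true of 21.8% of all genes tested. Its difference was 1.51 ± 0.18 (SE; limma, adjusted p = 0.000914) with 24 arrays and 1.62 ± 0.14 with 20. Dnah12, a dynein heavy chain of the axoneme, went from 6.3, 6.36 and 6.83 at ZT1 to 8.32, 7.82 and 7.91 at ZT19. The narrow array gave the highest Dnah12 value of its group, still below every ZT19 array. The Dnah12 difference was 1.52 ± 0.27 (limma, adjusted p = 0.0244) and, with 20 arrays, 1.69 ± 0.13. Spata18, a gene of the mitochondria and of cells with motile cilia, had 5.68, 5.72 and 5.86 at ZT1 and 7.35, 7.13 and 7.09 at ZT19, with a difference of 1.44 ± 0.24 (limma, adjusted p = 0.0167). Fam216b also passed, with 5.86, 5.82 and 5.2 against 7.14, 7.32 and 7.07 (1.55 ± 0.3, limma, adjusted p = 0.0475). All 3 ZT1 values of Stoml3 lay below 5.84, the mean required by the filter. So did ZT1 arrays 1 and 2 for Spata18 and arrays 2 and 3 for Fam216b. These low signals entered the test because the filter takes the mean over all arrays.

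Further axonemal dyneins rose in both fits: Dnah11 by 0.86 and Dnah5 by 0.72 with 24 arrays, and by 0.95 and 0.79 with 20. Hydin, a protein of the central pair of microtubules, rose by 0.82 (0.88 with 20 arrays), and Ccdc162 by 0.93 (0.95). Dnah6 and Cfap54 had larger differences of 1.56 and 1.3 with 24 arrays but did not pass there (limma, adjusted p = 0.101 and 0.214), and the narrow array read 5.28 for Dnah6 and 6.89 for Cfap54, below the 2 other ZT1 arrays. With 20 arrays they rose by 1.4 and 1.1. The radial spoke gene Rsph4a, the ruler-complex gene Ccdc39 and the outer-arm dynein Dnah9 rose by 0.85, 0.77 and 0.46 with 20 arrays only. Dnah5, Rsph4a, Ccdc39 and Dnah9 were named after their values were seen. The 3 members that did not pass were Dnaic2, Ccdc40 and Dnaic1, with 20-array differences of 0.18, 0.12 and 0.08.

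Of genes outside the list that are known from cilia, Ak7 and Cfap43 were named by the size of their difference. Ak7, an adenylate kinase of cilia, had 6.04, 6 and 5.06 at ZT1 against 7.47, 7.27 and 6.95 at ZT19 and rose by 1.21 ± 0.14 with 20 arrays (limma, adjusted p = 8.47e-06). Cfap43, an axonemal protein, had 5.59, 5.72 and 7.82 against 6.97, 6.8 and 6.89. The narrow array exceeded all 3 ZT19 arrays for Cfap43, so the groups overlapped, and the gene rose only without that array, by 1.23. Of 12 tested tanycyte and ependymal genes, 2 rose and 1 fell with 20 arrays (median 0.05), and 0 passed with 24 (median 0.25). The 2 that rose, Ccdc153 (0.68) and Tmem212 (0.8), are genes of multiciliated ependymal cells, and Gpr50, an orphan receptor of tanycytes, fell by 0.44. In bulk tissue, more cells of a type and more RNA per cell cannot be told apart.

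Markers of the suprachiasmatic nucleus were mostly higher at ZT19. Of 13 tested members, 3 rose and 0 fell with 24 arrays (median 0.56), and 6 rose and 2 fell with 20 (median 0.37). The mean level of the list was 7.35 and 7.39 in the first 2 ZT1 arrays, 6.73 in the narrow one, and 7.85, 7.76 and 7.74 at ZT19. Vipr2, the receptor through which the nucleus keeps its neurons in step, had 7.02, 6.92 and 6.9 at ZT1 and 8.34, 8.28 and 8.35 at ZT19. Here the 3 ZT1 arrays lay close together and the groups did not overlap, which was true of 21.8% of all genes tested. The Vipr2 difference was 1.38 ± 0.2 (limma, adjusted p = 0.00452) with 24 arrays and 1.35 ± 0.12 with 20. Rasd1, a small G protein that tunes the response of the clock to light, had 6.25, 6.23 and 6.54 against 7.53, 7.21 and 7.3 (1.01 ± 0.17; limma, adjusted p = 0.0203). Six6, a homeobox factor needed to form the nucleus, had 5.92, 5.84 and 5.47 against 7.24, 6.46 and 6.73 (1.06 ± 0.2; limma, adjusted p = 0.0449), the widest ZT19 spread of these genes.

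With 20 arrays, Syt10, a synaptotagmin enriched in the nucleus, rose by 0.9 ± 0.07 from 9.22 and 9.38 to 10.12, 10.2 and 10.28, with 8.1 in the narrow array. Prokr2, the receptor of the output peptide prokineticin 2, rose by 0.73 and Rorb, an orphan nuclear receptor, by 0.38. Its ligand gene Prok2, named after its values were seen, was lower at ZT19 (6.11, 6.43 and 6.11 against 6.01, 5.82 and 5.72) and fell by 0.42 with 20 arrays. Without the narrow array Avp fell by 0.28, and with it the sign turned to 0.38. The number of markers that rose was 5 or 6 after leaving out any 1 of the 5 other arrays, and the number that fell was 0 without ZT1 array 2 or ZT19 array 2, and 1 without ZT1 array 1 or ZT19 array 3. Whether tissue taken at ZT19 held more of the suprachiasmatic nucleus was not tested.

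**Figure D2:**
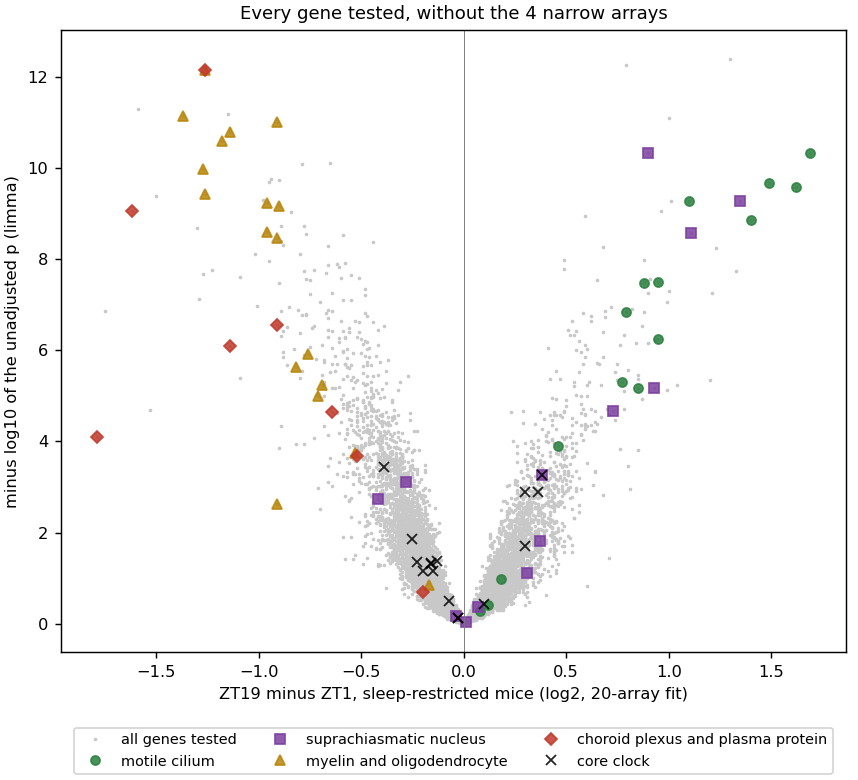
Difference ZT19 minus ZT1 in sleep-restricted mice (log2, horizontal axis) against minus log10 of the unadjusted limma p (vertical axis) for the 11963 genes tested, in the 20-array fit. Coloured symbols mark 5 gene lists: cilium genes lie to the right, myelin and plasma protein genes to the left, and core clock genes close to the centre.

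Core clock genes differed in both directions. Of 16 tested members, 0 passed with 24 arrays (median 0.36 against 0.24 for all genes), while 3 rose and 1 fell with 20 (median -0.1 against -0.04), where 5.02% of all genes rose and 9.96% fell. Per1, an inhibitor of the loop, had 8.02, 8.08 and 6.96 at ZT1 and 7.63, 7.59 and 7.76 at ZT19. The narrow array lay below all others for Per1, so the difference was -0.02 with 24 arrays and -0.39 ± 0.09 with 20, where it fell (limma, adjusted p = 0.00609). Clock, the activator, had 9.48 and 9.6 in the first 2 ZT1 arrays, 7.96 in the narrow one, and 9.97, 9.85 and 9.86 at ZT19, and rose by 0.36 with 20 arrays. The activating nuclear receptors Rora and Rorb rose by 0.3 and 0.38. These calls depended on single mice: 0 rose without ZT1 array 1, 1 rose and 0 fell without ZT1 array 2, and 2 rose without ZT19 array 1 or 2.

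The other clock genes did not pass in either fit. Arntl, which encodes BMAL1, differed by 0.3 ± 0.12 with 20 arrays (limma, adjusted p = 0.0949), and Per2 by -0.25 ± 0.09 (0.0754). The repressors of the second loop, Nr1d1 and Nr1d2, differed by -0.13 and 0.1, and Cry1 and Cry2 by -0.2 and -0.16. Per3 had 7.66 and 7.75 in the first 2 ZT1 arrays and 7.69, 7.63 and 7.58 at ZT19, with a difference of -0.07. The kinases Csnk1d and Csnk1e, the ubiquitin ligase subunit Btrc, the repressor Ciart and Arntl2 lay between -0.23 and -0.03.

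Of 14 clock output factors, 0 rose and 3 fell with 20 arrays (median -0.17), and 0 passed with 24 (median 0.18). Dbp, a PAR bZIP factor driven by CLOCK and BMAL1, had 8.71, 8.63 and 7.92 at ZT1 and 8.26, 8.21 and 8.12 at ZT19. Apart from the narrow array, the ZT1 mice were all above the ZT19 mice, as 50.6% of all genes did not overlap when that array was left aside, and Dbp fell by 0.48 ± 0.09 with 20 arrays (limma, adjusted p = 0.000714). Its relative Tef went from 8.23 and 8.22 to 8.03, 7.98 and 7.92 and fell by 0.24, near the threshold (limma, adjusted p = 0.043). Avp was the other member that fell. Hlf, the remaining PAR bZIP gene, differed by -0.04, its antagonist Nfil3 by -0.14, and the E-box repressors Bhlhe40 and Bhlhe41 by -0.02 and -0.21. Usp2, Rgs16, Wee1, Klf9 and Tsc22d3 did not pass, with differences from -0.24 to -0.02. Leaving out ZT1 array 1, ZT1 array 2 or ZT19 array 2 each left 1 output factor that fell, and leaving out ZT19 array 3 left 2.

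Several neuroendocrine genes rose without the narrow array. Of 12 tested paraventricular and supraoptic genes, 3 rose and 1 fell with 20 arrays (median 0.04), and 0 passed with 24 (median 0.39). Sim1, the factor that specifies paraventricular neurons, had 6.86, 7.03 and 5.83 at ZT1 and 8.25, 8.17 and 8.32 at ZT19. All 3 ZT19 arrays exceeded every ZT1 array for Sim1, where 21.8% of all genes tested did not overlap in 1 direction or the other. Sim1 rose by 1.3 ± 0.08 with 20 arrays (limma, adjusted p = 2.77e-09), and with 24 the difference was 1.67 ± 0.36 (0.0916). Sst, encoding somatostatin, which restrains growth hormone release, had 11.62, 11.73 and 10.6 against 12.54, 12.43 and 12.42 and rose by 0.79. Oxt, encoding oxytocin, rose by 0.55 from 11.06 and 10.92 to 11.45, 11.58 and 11.6. Trh, encoding thyrotropin-releasing hormone and named after its values were seen, differed by -0.1.

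Calls among arcuate and ventromedial genes were near the share over all genes (15%). Of 16, 2 rose and 1 fell with 20 arrays (median 0.07, and 0.24 with 24 arrays): Fezf1, a factor of ventromedial neurons, rose by 0.5, the growth hormone receptor Ghr rose by 0.36, and Gal, encoding galanin, fell by 0.54. Without ZT1 array 1 none of the 3 passed in limma, without ZT1 array 2 neither rose, and without ZT19 array 1 or 2 only 1 rose. Of 18 appetite genes, 1 rose and 0 fell (median 0.02, and 0.2 with 24 arrays), namely Cck, the peptide cholecystokinin, by 0.49 from 6.95 and 6.98 to 7.4, 7.5 and 7.46. Pomc, the precursor of the satiety peptide of the arcuate nucleus, lay below the filter on low signal, with 5.43, 5.37 and 6.51 at ZT1 and 5.52, 5.32 and 5.47 at ZT19, so this defining marker of the tissue was near the floor of the arrays.

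Of 11 tested arousal and sleep regulators, 1 rose and 4 fell with 20 arrays, and 0 passed with 24 (median 0.16). Their 20-array median of -0.04 equalled that of all genes, 5 of the 11 differences were positive, and calls over all genes also ran lower (9.96% against 5.02%). Ptgds, which makes the sleep-promoting prostaglandin D2, had 10.49, 10.5 and 8.38 at ZT1 and 9.87, 9.96 and 10.03 at ZT19. It fell by 0.54 ± 0.08 without the narrow array (limma, adjusted p = 7.94e-05) and differed by 0.16 with it. Tacr3, the neurokinin B receptor, fell by 0.59, the histamine autoreceptor Hrh3 fell by 0.44 and Gal fell as above, while the galanin receptor Galr1 rose by 0.42. The count that fell was 2 without ZT1 array 1 or 2, and Galr1 passed only while ZT1 arrays 1 and 2 and ZT19 arrays 1 and 2 were all kept.

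Myelin and oligodendrocyte genes were lower at ZT19 in every mouse outside the narrow array. With 20 arrays, 17 of 18 fell and 0 rose (median -0.91), and with 24 arrays 0 passed (median -0.3). The mean level of the list was 8.98 and 8.99 in the first 2 ZT1 arrays, 7.17 in the narrow one, and 8.13, 8.04 and 8 at ZT19. The narrow array thus lay below the ZT19 group, on the other side from its own group. Between 15 and 17 members fell after leaving out any 1 of the 5 other arrays.

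Mobp, a structural protein of compact myelin, had 10.4, 10.45 and 7.57 at ZT1 and 9.24, 8.96 and 8.95 at ZT19. It fell by 1.37 ± 0.1 with 20 arrays (limma, adjusted p = 1.38e-08), against -0.42 ± 0.54 with 24. Mbp, the basic protein that compacts the sheath, had 10.76, 10.76 and 8.2 against 9.94, 9.8 and 9.82 and fell by 0.91 ± 0.07. In Mbp the first 2 ZT1 arrays agreed to the second decimal and all 3 ZT19 arrays lay below them. Without the narrow array the groups did not overlap in 50.6% of all genes tested. Mag, an adhesion protein facing the axon, fell by 1.14, the surface protein Mog by 1.27, and Fa2h, which makes the hydroxylated lipids of myelin, fell by 1.18. Trf, the iron carrier transferrin made by oligodendrocytes, had 10.5, 10.48 and 7.99 against 9.4, 9.14 and 9.15 and fell by 1.26. Anln, outside the list, had 8.19, 8.34 and 5.01 against 6.75, 6.68 and 6.63 and fell by 1.59. The exception was Olig2, the lineage factor, named after its values were seen, with a difference of -0.17 (limma, adjusted p = 0.332).

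Precursor and astrocyte lists moved less. Of 12 oligodendrocyte precursor genes, 3 fell and 0 rose with 20 arrays (median -0.21, and 0.06 with 24 arrays): Enpp6 (by 1.09) and Bcas1 (by 0.89), which mark newly forming oligodendrocytes, and Sox6 (by 0.41). Of 17 astrocyte genes, 6 fell and 0 rose (median -0.18, and 0.37 with 24 arrays), led by Gfap, the filament protein of reactive and fibrous astrocytes, which had 9.4, 9.56 and 6.69 against 8.5, 8.08 and 8.05 and fell by 1.27 ± 0.14. S100b, a calcium-binding protein found in astrocytes and oligodendrocytes, fell by 0.75. The astrocyte count was 3 without ZT1 array 1 and 4 without ZT1 array 2, ZT19 array 2 or ZT19 array 3.

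Cholesterol synthesis and its regulators were also lower. With 20 arrays 12 of 24 fell and 0 rose (median -0.24), and with 24 arrays 0 passed (median 0.22). Fasn, the fatty acid synthase, had 9.65, 9.56 and 8.02 at ZT1 and 9.11, 9.1 and 9.09 at ZT19 and fell by 0.5 without the narrow array. Scd1, the desaturase that makes oleate, had 1 wide ZT1 value, 11.05, against 10.54, 10.34 and 10.41, since ZT1 array 1 was missing. Its call (-0.62) compares 1 sample with 3 and takes the spread from the other groups, and it is 1 of the 12 counted. Srebf2, the factor that switches the pathway on, fell by 0.27. The count depended on single mice: 2 fell without ZT1 array 1 or 2, 6 without ZT19 array 2 and 7 without ZT19 array 3.

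**Figure D3:**
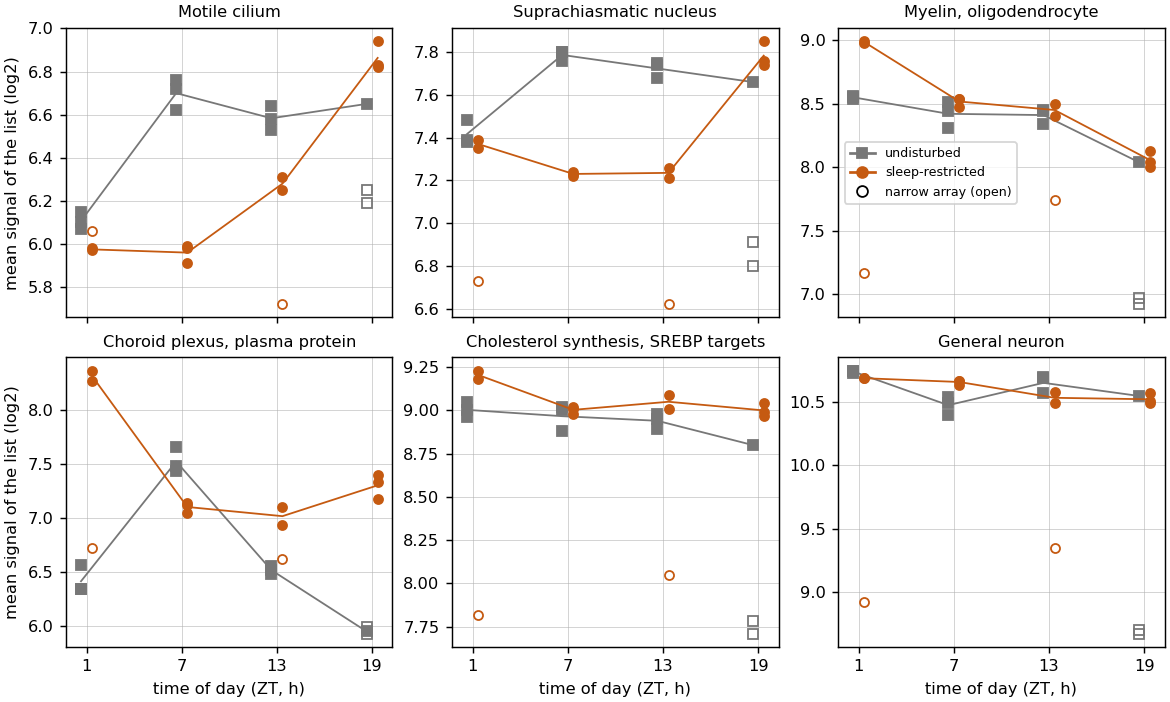
Mean signal (log2, vertical axis) over the tested members of 6 gene lists in each of the 24 arrays, against time of day (ZT in hours, horizontal axis), with sleep-restricted mice as circles and undisturbed mice as squares. Lines join the means of the arrays that are not narrow, and open symbols are the 4 narrow arrays: in sleep-restricted mice the cilium list has its highest level and the myelin list its lowest at ZT19.

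Transcripts of blood plasma proteins were lower at ZT19 than in the wide ZT1 arrays. Of 8 tested genes on a list of plasma protein and choroid plexus transcripts, 7 fell and 0 rose with 20 arrays (median -1.03), and with 24 arrays 0 passed (median -0.58). Alb, serum albumin of the liver, had 10.17, 9.65 and 7.31 at ZT1 and 8.3, 8.43 and 8.14 at ZT19. Alb fell by 1.62 ± 0.15 with 20 arrays (limma, adjusted p = 3.55e-07). The plasma protease inhibitor Serpina1c had 8.93, 8.9 and 5.65 against 7.65, 7.02 and 6.72 and fell by 1.79, and the apolipoproteins Apoa1, Apoa2 and Apoc1 fell by 1.14, 0.91 and 0.64. Trf, counted above with myelin, is also on this list. Ttr, the transthyretin that the choroid plexus makes in large amounts, had 7.06, 6.92 and 6.65 against 6.88, 6.82 and 6.68 and did not pass, with a difference of -0.2. Of other choroid plexus genes, the chloride channel gene Clic6 fell by 0.52 with 20 arrays, while Folr1, a folate receptor, and Kl, encoding klotho, lay below the filter, with 4.82, 4.78 and 5.71 against 4.87, 5.11 and 5 for Folr1 and 5.38, 5.2 and 5.39 against 5.56, 5.55 and 5.35 for Kl. In undisturbed mice Alb had 5.86, 5.84 and 5.51 at ZT1 and 4.51, 4.17 and 5.24 at ZT19, below every sleep-restricted array of those times. In sleep-restricted mice the list's mean level was 6.72 to 8.36 at ZT1 and 7.17 to 7.4 at ZT19. Its level was 7.04 to 7.14 at ZT7 and 6.93 and 7.1 in the wide ZT13 arrays, below every ZT19 array. On the array, 9 of its 17 genes lay below the filter, and the part of liver or choroid plexus RNA in other results was not tested.

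Genes that mark neighbouring forebrain regions differed between the groups in both directions. Of 17 striatal and forebrain cholinergic genes, 5 rose and 4 fell with 20 arrays (median 0.22), and of 18 cortical and thalamic genes, 7 rose and 0 fell (median 0.2), while 0 of either list passed with 24 (medians 0.42 and 0.28). Slc18a3, the transporter that loads acetylcholine into vesicles, had 8.39, 8.29 and 6.53 at ZT1 and 6.7, 6.86 and 6.96 at ZT19 and fell by 1.5 ± 0.13 (limma, adjusted p = 2.29e-07). Slc5a7, the choline transporter of the same neurons, fell by 1.3, and Chat, the enzyme that makes acetylcholine, lay below the filter with 6.67, 6.61 and 5.62 against 5.42, 5.53 and 5.22. Lhx6 and Lhx8, factors of ventral forebrain neurons, fell by 0.94 and 0.86. These cholinergic genes were lower in every ZT19 array than in the 2 wide ZT1 arrays. Between these arrays 50.6% of all genes tested did not overlap, in 1 direction or the other.

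Others of these regions rose. Meis2, a homeobox factor of the striatum, had 7.63, 7.71 and 5.84 at ZT1 and 8.63, 8.54 and 8.49 at ZT19 and rose by 0.88. Drd1, the D1 dopamine receptor, had 6.65, 6.78 and 7.27 against 7.68, 7.68 and 7.8 and rose by 1, and Foxp2, a factor of striatal and thalamic neurons, by 0.96. Tcf7l2, a thalamic factor, rose by 0.5, and Slc17a6 and Slc17a7, the vesicular glutamate transporters of subcortical and of cortical neurons, by 0.39 and 0.49. The synaptic gene Nrgn rose by 0.42. Slc17a7 stood at a mean of 8.01 in the 2 wide TSR arrays of ZT13 and 5.95 at ZT7, a wider range than between ZT1 and ZT19. The list means were 6.83 to 8 at ZT1 and 7.95 to 8 at ZT19 (striatal and cholinergic), and 6.9 to 7.41 and 7.59 to 7.63 (cortical and thalamic). How much the borders of the dissected block contribute to the other results was not tested. Without ZT1 array 1, 3 striatal and cholinergic genes rose, and without ZT1 array 1 or 2, 4 cortical and thalamic genes rose.

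Of 18 general neuron genes, 6 fell and 0 rose with 20 arrays (median -0.13, and 0.43 with 24 arrays), led by Thy1, a surface protein of projection neurons, which had 11.32, 11.26 and 9.45 against 10.69, 10.65 and 10.7 and fell by 0.61. Over all genes, 5.02% rose and 9.96% fell in this fit. The neuron count was 2 without ZT1 array 1, 3 without ZT1 array 2 and 4 without ZT19 array 2 or 3. Of 15 GABA neuron genes (median 0.08, and 0.41 with 24 arrays), 2 rose (Sst and Cck) and 3 fell (Lhx6, Pvalb by 0.65 and the vesicular transporter Slc32a1). Of 24 subunits of GABA-A and ionotropic glutamate receptors, 9 rose and 1 fell (median 0.22, and 0.7 with 24 arrays). Gabra2, a GABA-A subunit, had 7.73, 7.62 and 6.71 at ZT1 and 8.41, 8.39 and 8.23 at ZT19 and rose by 0.66. Gria3, an AMPA receptor subunit, rose by 0.55, the NMDA receptor subunit Grin2a by 0.48, and Gabrg3 and Gabra4 by 0.46 and 0.42, while the kainate receptor subunit Grik5 fell by 0.35. Only 3 subunits rose without ZT1 array 1, 4 without ZT1 array 2 and 5 without ZT19 array 1, and 14 rose after quantile normalization of the 20 arrays again.

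Of 32 ion channel genes, 4 rose and 4 fell with 20 arrays (median 0.01, and 0.35 with 24 arrays), where 5.02% of all genes rose and 9.96% fell. Scn2a, the sodium channel of axon initial segments, had 10.21, 10.32 and 10.06 against 10.87, 10.87 and 10.83 and rose by 0.59 ± 0.06 with 20 arrays. Scn9a rose by 0.49, whereas Kcnj10, the potassium channel of glia, fell by 0.62. Fewer channels passed without ZT1 array 1 (2 and 1) or ZT1 array 2 (2 and 2), and 2 rose without ZT19 array 1. Of 19 imprinted genes, 5 rose and 1 fell (median 0.04, and 0.58 with 24 arrays): the noncoding Rian had 9.5, 9.41 and 8.92 against 10.12, 10.19 and 10.12 and rose by 0.68, and Igf2, a growth factor of the meninges, fell by 0.46. Rises among imprinted genes numbered 1 without ZT1 array 1 or 2, 2 without ZT19 array 1 and 3 without ZT19 array 2 or 3.

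Transcripts known to follow waking and sleep loss showed no common direction, where 5.02% of all genes rose and 9.96% fell with 20 arrays. Of 17 immediate early genes, 1 rose and 3 fell with 20 arrays (median -0.02), and of 16 transcripts named for sleep loss and cold, 2 rose and 4 fell (median -0.07), with 0 passing with 24 arrays (medians 0.05 and 0.07). Homer1, a synaptic scaffold induced by waking, had 8.13, 8.09 and 6.72 at ZT1 and 8.47, 8.43 and 8.4 at ZT19 and rose by 0.32. The other riser was Hspa5, the chaperone BiP, by 0.22. Dusp4, a phosphatase of MAP kinases, fell by 0.5, Sik1, a salt-inducible kinase of the clock's light response, by 0.38 and Sgk1, a glucocorticoid-induced kinase, by 0.46. Without ZT1 array 1 neither list had a riser, the fallers were 0 and 2, and without ZT1 array 2, 0 rose and 2 and 4 fell.

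Chaperone, glucocorticoid and metabolic genes had few calls, where 5.02% of all genes rose and 9.96% fell. In lists this short, having 0 risers cannot be told apart from that share. Of 20 cytosolic heat shock genes, 2 rose and 4 fell (median -0.03, and 0.23 with 24 arrays): Hsp90aa1 rose by 0.23, while Cryab, a small heat shock protein rich in oligodendrocytes, had 9.63, 9.89 and 8.38 against 9.09, 8.76 and 8.72 and fell by 0.9, and the co-chaperone Bag3 fell by 0.57. Of 20 endoplasmic reticulum chaperone and stress genes, 2 rose and 2 fell (median 0.03, and 0.36 with 24 arrays), among them the stress factor Atf4, which fell by 0.4. Of 19 glucocorticoid receptors and responsive genes, 0 rose and 3 fell (median -0.18, and 0.09 with 24 arrays), and of 16 hypoxia and glucose genes, 0 rose and 4 fell (median -0.09, and 0.24 with 24 arrays), including Vegfa, the growth factor of vessels, by 0.37. Of 17 fatty acid oxidation genes (median -0.14, and 0.29 with 24 arrays) 2 fell, without reaching any call when ZT1 array 1 or 2 or ZT19 array 3 was left out. In limma with 20 arrays 0 of 7 interferon genes and 0 of 4 pituitary genes passed, with 0 and 1 at an unadjusted p under 0.05 and medians of -0.08 and -0.05 (0.03 and -0.15 with 24 arrays). Vessel cells contributed 1 riser of 15, the smooth muscle actin Acta2 (0.59), microglia 1 faller of 12, the complement gene C1qb (by 0.42), and meningeal fibroblasts 1 faller of 7, Igf2. The medians of these 3 lists were -0.03, -0.1 and -0.11 with 20 arrays and 0.2, 0.09 and -0.38 with 24. Counts this small moved with single arrays, for example to 0 and 0 for the endoplasmic reticulum list without ZT1 array 1. The hypoxia and glucose list had 1 riser and 3 fallers without ZT19 array 3.

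Some ribosomal and mitochondrial subunits were lower by small amounts, and most did not pass. Of 64 cytosolic ribosomal protein genes, 27 fell and 0 rose with 20 arrays (median -0.21), and of 84 nuclear genes of the respiratory chain, 34 fell and 0 rose (median -0.22). With all 24 arrays 0 of either list passed, and the medians were 0.12 and 0.18. Uqcr11, a subunit of complex III, had 8.07, 7.97 and 6.8 against 7.28, 7.3 and 7.15 and fell by 0.78, and Cox6b1, of complex IV, fell by 0.55. Rpl37a and Rpl13, proteins of the large ribosomal subunit, fell by 0.45 and 0.4. Ribosomal calls numbered 10 without ZT1 array 1, 14 without ZT1 array 2, 17 without ZT19 array 2 and 16 without ZT19 array 3, and respiratory calls 14 without ZT1 array 1. Quantile normalization of the 20 arrays again gave 4 ribosomal genes that rose beside 27 that fell.

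Of 32 small noncoding RNA genes, 2 rose and 7 fell with 20 arrays (median -0.14, and -0.05 with 24 arrays), against 5.02% and 9.96% of all genes. Vaultrc5, a vault RNA, had 6.87, 6.81 and 5.44 at ZT1 and 5.42, 4.98 and 4.89 at ZT19 and fell by 1.75 ± 0.22 with 20 arrays (limma, adjusted p = 1.72e-05). The Y RNAs Rny1 and Rny3, which bind the Ro protein, fell by 1.53 and 0.88, and Snord33, a guide for methylation of ribosomal RNA, fell by 0.78, while Snord53 rose by 0.41. None rose without ZT1 array 2.

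Besides Fam216b, 3 of the 14 genes of the 24-array fit stood outside the lists. Tm4sf1, a tetraspanin-like protein of endothelium, had 6.47, 6.28 and 6.06 at ZT1 and 7.36, 7.17 and 7.33 at ZT19 (1.01 ± 0.2; limma, adjusted p = 0.0475). Kcnmb1, a regulatory subunit of the calcium-activated potassium channel of smooth muscle, had 5.71, 5.38 and 5.8 against 6.9, 6.37 and 6.48 (0.95 ± 0.19, limma, adjusted p = 0.0475). Its 3 ZT1 values also lay below 5.84, the mean required by the filter. Plin3, a coat protein of lipid droplets, was the single gene that fell, from 7.44, 7.41 and 7.47 to 6.78, 6.91 and 6.84. Its 3 ZT1 arrays, the narrow one included, lay above every ZT19 array, and the difference was -0.6 ± 0.11 (limma, adjusted p = 0.0386). Ano3, an anoctamin outside the lists, had 6.43, 6.31 and 4.75 against 7.78, 7.48 and 7.42 and rose by 1.2 with 20 arrays only.

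**Figure D4:**
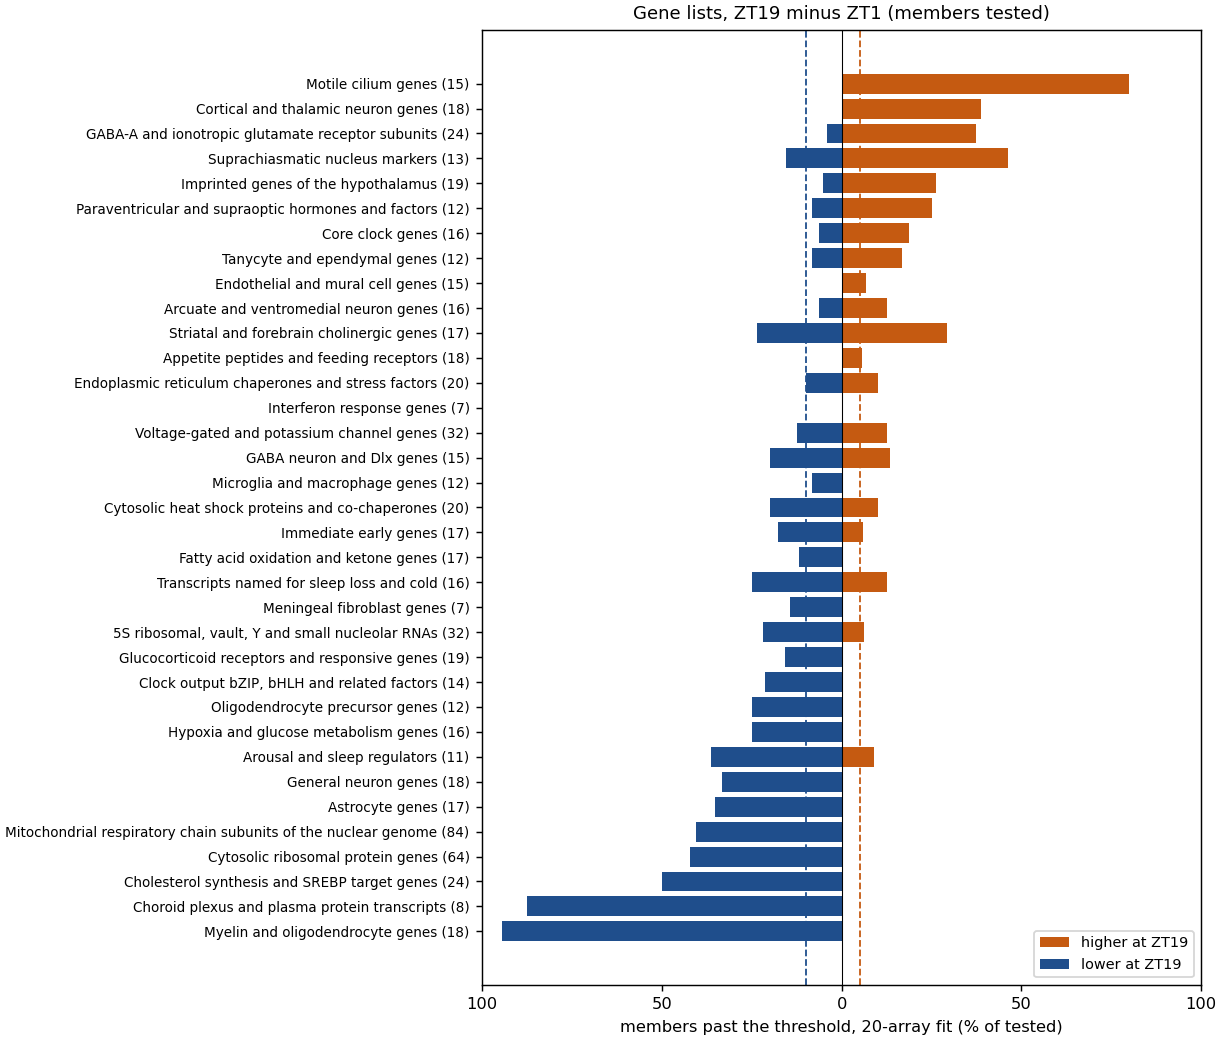
Share of the tested members of each gene list (vertical axis, members tested in brackets) that rose (orange, to the right) or fell (blue, to the left) in the 20-array fit, as percent of members (horizontal axis). Dashed lines give the shares over all genes, 5.02% higher and 9.96% lower: motile cilium genes reach furthest to the right with 12 of 15, and myelin genes furthest to the left with 17 of 18.

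The time difference was then set against that of undisturbed mice, whose ZT19 group has 2 narrow arrays and 1 wide one. The test is the difference between conditions in ZT19 minus ZT1. With 24 arrays 4918 genes passed in limma (41.1%), 4285 higher (35.8%) and 633 lower (5.29%), but 4915 of them had an adjusted p above 0.04, and the count ran from 0 (without any 1 CON ZT1 array, CON ZT19 array 3 or any 1 TSR ZT19 array) to 9018 (without CON ZT19 array 1). The counts of 0 in limma came with 4726 to 6846 genes at an unadjusted p under 0.05. Leaving out TSR ZT1 array 1, TSR ZT1 array 2 or TSR ZT13 array 2 gave 7793, 7647 and 7626, 2 passed without CON ZT19 array 2 or TSR ZT1 array 3, and 3 without an array of CON ZT7, CON ZT13 or TSR ZT7. With 20 arrays 617 genes passed (5.16%), 375 higher (3.13%) and 242 lower (2.02%), and CON ZT19 is then 1 array whose spread is taken from that of the remaining groups. That count was 248 without TSR ZT1 array 1, 250 without TSR ZT1 array 2 and 365 without TSR ZT19 array 2. Of the 1792 genes called in sleep-restricted mice, 1177 had the same sign in undisturbed mice, and 272 passed there too in that direction, out of 843 that passed in undisturbed mice.

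The cilium list was higher at ZT19 in both conditions. With 20 arrays its median difference in undisturbed mice was 0.55, which rests on 1 ZT19 array. The mean level of the list was 6.07, 6.15 and 6.1 in the undisturbed ZT1 arrays and 6.65 in that ZT19 array. Stoml3 had 5.73, 5.97 and 5.51 at ZT1 and 6.47 at ZT19 in undisturbed mice, and its difference was 0.89 ± 0.23 larger under restriction (limma, adjusted p = 0.0262). Dnah12, Spata18 and Fam216b also differed, by 0.83, 0.83 and 0.89, and no other member of the cilium list passed this test (Fam216b stands outside the list). Dnah12 did not pass with all 24 arrays (0.87; limma, adjusted p = 0.0598). The level of the list at ZT7 was 6.62 to 6.76 in undisturbed and 5.91 to 5.99 in sleep-restricted mice, as the plot of list means by time shows. For suprachiasmatic markers the median difference with 20 arrays was 0.37 under restriction and 0.31 in undisturbed mice, again with 1 undisturbed ZT19 array. Vipr2 differed by 0.54 ± 0.2 between the conditions and did not pass.

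Most tested core clock and output genes did not pass between the conditions, and those that did rest on 1 undisturbed ZT19 array. Per1 had 7.44, 7.74 and 7.62 at ZT1 and 7.78 at ZT19 in undisturbed mice, and the difference between conditions was -0.57 ± 0.15 (limma, adjusted p = 0.0267). For Dbp the undisturbed values were 8.35, 8.38 and 8.29, then 8.56, and the conditions differed by -0.69 ± 0.14 (limma, adjusted p = 0.00624). Tef and Per3 differed by -0.48 and -0.4, and Rora by 0.54. Per3 lay close to the threshold here, and it did not pass between the times under restriction. With all 24 arrays the sign turned for Per1 (0.15), Dbp (0.27), Tef (0.86) and Per3 (0.47). Avp had 9.02, 8.9 and 8.95, then 8.11, in undisturbed mice, and differed by 0.57 ± 0.11. Sim1 and Sst rose more under restriction, by 0.85 and 0.35.

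The myelin list was lower at ZT19 in both conditions outside the narrow arrays. With 20 arrays its median difference in undisturbed mice was -0.56, which rests on 1 ZT19 array. The mean level of the list was 8.55, 8.56 and 8.54 in the undisturbed ZT1 arrays and 8.04 in that ZT19 array. Mobp had 9.51, 9.55 and 9.5, then 9.1, in undisturbed mice, so the sleep-restricted mice were higher at ZT1 (10.4 and 10.45) and close at ZT19. The conditions differed by -0.95 ± 0.16 for Mobp (limma, adjusted p = 0.00155), -0.5 for Mbp and -0.6 for Mag. With all 24 arrays these signs turned to 1.15, 1.66 and 1.32.

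Genes of forebrain regions were among those that differed most between conditions. Meis2 had 8.53, 8.6 and 8.52 at ZT1 and 6.58 at ZT19 in undisturbed mice, and the conditions differed by 2.85 ± 0.16 (limma, adjusted p = 1.89e-09). Foxp2 differed by 1.68, Slc5a7 by 1.63, Necab1 by 1.49, Tcf7l2 and Drd1 by 1.36, Slc17a7 by 1.27, Nrn1 by 1.12, Prkaa2 by 0.99 and Scn2a by 0.8. Drd1 did not pass with all 24 arrays (0.64; limma, adjusted p = 0.0629). These differences rest on CON ZT19 array 1, in which Meis2, Foxp2 and Tcf7l2 stood at 6.58, 6.41 and 7.11, below every undisturbed ZT1 array. The narrow CON ZT19 arrays read lower still for Meis2 (5.82 and 5.81). In the other direction, the Y RNA Rny1 differed by -2.89 (-0.21 with all 24 arrays, where it did not pass), AY036118 differed by -2.81 and Gm10874 by -1.64, with 8.4, 7.88 and 7.97 for AY036118 at ZT19 under restriction against 10.37 in CON ZT19 array 1.

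**Figure D5:**
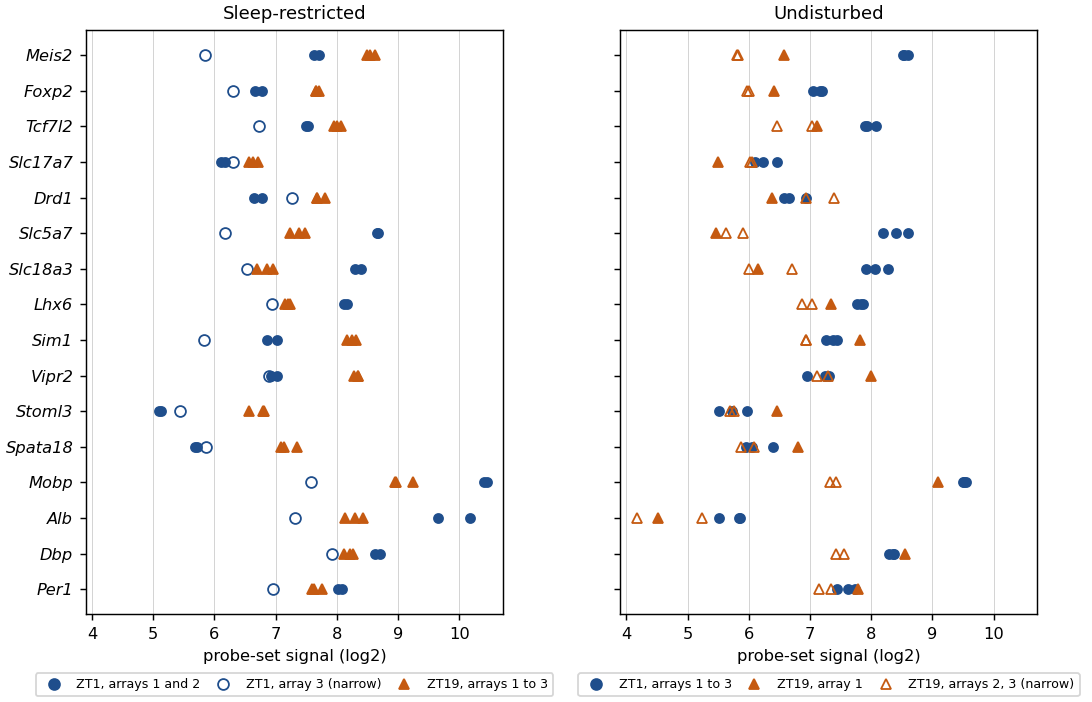
Probe-set signal (log2, horizontal axis) in single arrays for 16 genes in sleep-restricted mice (left) and undisturbed mice (right), with circles for ZT1, triangles for ZT19 and open symbols for narrow arrays. Meis2, Foxp2 and Tcf7l2 lie further right at ZT19 than at ZT1 under restriction and further left in undisturbed mice, while Stoml3 and Spata18 in the wide arrays lie further right at ZT19 in both.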

How the data were processed

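The values are log2 probe-set signals deposited by the authors in 1 table of 24 arrays; per the submitters' processing notes they came from Affymetrix Expression Console, with no version or summarization method given in the sources used here. RNA was extracted with Trizol and labelled with biotin, per the labels' protocols. In 2306 of 853344 cells (0.27%), 601 of them in the 6 arrays compared, the decimal point was taken as misplaced (a value 10 times as large lay nearer to the probe set's median over arrays, or, with no such median, the size of the cell pointed to it); these were multiplied by 10, and 65 incomplete cells were treated as missing, beside 9 missing as deposited. The 646 restored cells of probe sets with 1 symbol lay a median of 0.172 from that median, against 0.156 for other cells of such probe sets. Over all probe sets these distances were 0.53 and 0.176. Because cells were chosen largely by nearness to that median, the distances cannot show that each was rightly restored. Of the symbols, 21698 matched RefSeq. The probe set with the highest mean stood for a gene, and genes under the 40th percentile (5.84) were left out.

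Groups were fitted with limma 3.58.1 in R 4.3.3 (lmFit and eBayes with a trend, 8 groups, Benjamini-Hochberg adjustment over all genes tested). The fit was made on 24 arrays and on the 20 that are not narrow. Named genes were those with the largest differences or smallest p in either fit, the clock genes, and up to 6 members per list; exceptions are stated. The members and gene lists were chosen with earlier results of these data known. Precision is limited by 3 mice per group. The 20-array fit has fewer: arrays 1 and 2 of TSR ZT1, arrays 1 and 3 of TSR ZT13, and array 1 of CON ZT19.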

Additional observations from a re-analysis of the deposited data

Results flagged for a closer look

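The following genes had a ZT19 minus ZT1 difference that differed between sleep-restricted and undisturbed mice by the test of that difference (limma, 20 arrays, adjusted over all genes; values are log2, sleep-restricted minus undisturbed). The undisturbed ZT19 group has 1 array in this fit. Cilium-related genes were higher by 0.89 (Stoml3), 0.83 (Dnah12), 0.89 (Fam216b) and 0.83 (Spata18). Clock genes differed by -0.57 (Per1), -0.4 (Per3), -0.69 (Dbp), -0.48 (Tef) and 0.54 (Rora), and peptide neuron genes by 0.57 (Avp), 0.85 (Sim1) and 0.35 (Sst). Of these, Per3 lay close to the threshold. Myelin genes differed by -0.95 (Mobp), -0.5 (Mbp) and -0.6 (Mag). Genes of forebrain and other neurons differed by 1.63 (Slc5a7), 2.85 (Meis2), 1.36 (Drd1), 1.68 (Foxp2), 1.36 (Tcf7l2), 1.27 (Slc17a7), 1.49 (Necab1), 1.12 (Nrn1), 0.8 (Scn2a) and 0.99 (Prkaa2). AY036118 and Gm10874 differed by -2.81 and -1.64. With all 24 arrays the Dnah12 and Drd1 differences were 0.87 and 0.64 and did not pass (limma, adjusted p = 0.0598 and 0.0629). Nor did Per1 (0.15), Per3 (0.47), Dbp (0.27), Tef (0.86), Mobp (1.15), Mbp (1.66) and Mag (1.32), whose signs turned there.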

How the results depend on the processing

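The count of genes past the threshold in limma depended on the narrow arrays. From 14 with 24 arrays it became 5 after quantile normalization again, 1792 with 20 arrays, 0 with only the 6 arrays compared (328 at an unadjusted p under 0.05), 1 with the 12 sleep-restricted arrays, 8 with no filter, 1 with a filter at the 60th percentile, 7 without the trend and 3686 with array weights, and 4 to 46 when 1 array was left out. With the replicate number as a block (replicate block) it was 8, and 1646 with the replicate block in 20 arrays. Same-numbered arrays correlated at 0.42, -0.18 and 0.38, and the highest correlations with another number were -0.16, 0.43 and 0.18. The same number was thus higher for replicates 1 and 3 and lower for replicate 2. The ZT1 means behind these correlations include the narrow array, so the values cannot tell whether the numbers pair the mice. The 20-array count of 1792 became 2337 after quantile normalization again and ran from 660 to 1567 with 1 array left out. The test between conditions (4918) gave 617 with 20 arrays, 3 with no filter, 9371 with array weights, 443 with the replicate block in 20 arrays, and 0 to 9018 with 1 array left out; its 20-array count of 617 became 1272 after quantile normalization again and 248 to 503 with 1 array left out. The cause was not tested.

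Signs turned against the 24-array fit, in the order 20 arrays, array weights and replicate block in 20 arrays, for Gpr50 (-0.44, -0.5, -0.46), Avp (-0.28, -0.3, -0.28), Ptgds (-0.54, -0.52, -0.56), Fasn (-0.5 in each), Scd1 (-0.62, -0.65, -0.59), Srebf2 (-0.27, -0.28, -0.28), Thy1 (-0.61 in each), Grik5 (-0.35, -0.34, -0.35) and Sgk1 (-0.46, -0.41, -0.47). They also turned for Tef (-0.24 with 20 arrays, -0.25 with weights), Bhlhe41 (-0.24 with weights) and Tsc22d3 (-0.26 with weights). Between conditions, all 24 arrays turned Per1 (0.15), Per3 (0.47), Dbp (0.27), Tef (0.86), Mobp (1.15), Mbp (1.66) and Mag (1.32).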
